A study of Drosophila melanogaster with 3 samples.

Results

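The strongest binding sites of the CG12104 protein in fly embryos are described here: 236 of the 4060 reproducible peaks (5.81%) of a chromatin immunoprecipitation experiment with sequencing (ChIP-seq), in the dm6 genome build. They were chosen by the pooled signal, the height that the authors' peak caller gave each region from all replicates together, with a minimum of 500. Signal is in the authors' own units and has meaning only within a list. The reproducible set is the one the authors selected by the irreproducible discovery rate (IDR), a measure of rank agreement between replicates. The material was *Drosophila melanogaster* embryos, taken whole at 0 to 24 h with both sexes pooled, from a transgenic line stably expressing CG12104 with a C-terminal GFP tag. An anti-GFP antibody was used on sonicated chromatin, with a size range of 200 to 800 bp. There was 1 group of 3 biological replicates, and no second line, stage or treatment, so peaks were compared with other peaks and not with another condition. No source used here says whether the tagged protein replaces the native one.

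Among the gene lists used here, CG12104 belongs to the HMG-box genes. Their proteins contact the DNA minor groove with a high mobility group domain. Proteins with this domain often bend DNA, and many bind with little sequence preference or to short AT-rich words. Promoters of active fly genes have a nucleosome-poor stretch just upstream of the transcription start site (TSS), where many factors are found in ChIP-seq.

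On average the summits of the strong peaks lay in short AT-rich troughs, and the sequences around a few of the strongest are printed here. The 3 sequences below are plus-strand windows of 281 bases centred on the summit, with the central 51 bases in capitals. They were read from the NCBI Release 6 assembly (dm6). They are the highest strong peaks on arms 2L, 3L, 3R and X whose window holds no annotated exon: the first 2 away from promoters, and the first at a promoter with a central GC content of at most 30%, a limit set after the values were seen. The *cbt* site (chr2L:480910-481190, in an intron of *ush*) had a central GC content of 27.5% against 51% for the mean of 2 windows 200 bp to either side. The *Trl* site (chr3L:14759379-14759659, in an intron of *Trl*) was higher at the centre, at 41.2% against 52.0%. The CG31145 promoter site (chr3R:23669685-23669965) had 29.4% against 49.0%. The windows 200 bp away lie outside the printed bases. The whole printed windows had 43.4%, 31.7% and 34.9% at *cbt*, *Trl* and CG31145. The *Trl* centre was thus richer in GC than its printed surroundings, and that site shows no trough within them.
cbt: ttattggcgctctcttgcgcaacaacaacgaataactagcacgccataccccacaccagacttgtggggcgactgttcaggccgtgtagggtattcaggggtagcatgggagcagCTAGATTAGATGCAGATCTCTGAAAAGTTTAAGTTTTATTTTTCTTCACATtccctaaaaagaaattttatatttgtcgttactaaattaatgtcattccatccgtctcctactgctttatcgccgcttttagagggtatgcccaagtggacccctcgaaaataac
Trl intron: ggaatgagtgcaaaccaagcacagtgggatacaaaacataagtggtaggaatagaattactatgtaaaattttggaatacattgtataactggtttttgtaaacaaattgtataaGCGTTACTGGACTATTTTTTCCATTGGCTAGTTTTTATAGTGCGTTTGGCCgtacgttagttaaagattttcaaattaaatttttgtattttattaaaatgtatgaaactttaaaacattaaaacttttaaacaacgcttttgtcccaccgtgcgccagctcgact
CG31145 promoter: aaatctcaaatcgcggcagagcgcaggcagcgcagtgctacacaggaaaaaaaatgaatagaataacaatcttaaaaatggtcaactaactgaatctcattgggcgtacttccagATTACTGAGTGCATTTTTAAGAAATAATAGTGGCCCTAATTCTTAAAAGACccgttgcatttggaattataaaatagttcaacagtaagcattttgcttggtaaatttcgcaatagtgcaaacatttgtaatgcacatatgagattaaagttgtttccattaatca

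A second set shows the 6-base word TTAAAA, read as TTTTAA on the other strand, which had the largest excess in strong peaks over the other IDR peaks of all 6-base words. The sequences are 81-base plus-strand windows centred on the summit, with each copy of the word in capitals. They are the 4 highest strong peaks away from promoters and the 4 highest at promoters that hold the word, from the same arms, clear of exons and not inside a window already shown. The windows are chr2L:6612686-6612766 (CG11050 intron, signal 2158), chr3R:11761005-11761085 (*Lk6* intron, 1221), chrX:3742165-3742245 (*Tlk* intron, 1029), chr3L:10682953-10683033 (an intron of *simj*, nearest TSS CG11811, 836.6), chrX:2703859-2703939 (*Ugalt* promoter, 1897), chr3R:15229500-15229580 (*mRpS10* promoter, 1437), chr3R:12449145-12449225 (CG18549 promoter, 1243) and chr3L:5139458-5139538 (*Tcs5* promoter, 1053).
CG11050: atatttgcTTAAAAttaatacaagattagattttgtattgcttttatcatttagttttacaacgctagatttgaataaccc
Lk6: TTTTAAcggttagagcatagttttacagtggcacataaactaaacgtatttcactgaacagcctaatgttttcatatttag
Tlk: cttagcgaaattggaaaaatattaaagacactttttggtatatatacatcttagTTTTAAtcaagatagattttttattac
simj intron: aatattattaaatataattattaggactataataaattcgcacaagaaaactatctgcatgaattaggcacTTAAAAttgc
Ugalt: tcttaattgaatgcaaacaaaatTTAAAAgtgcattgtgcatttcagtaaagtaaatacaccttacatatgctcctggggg
mRpS10: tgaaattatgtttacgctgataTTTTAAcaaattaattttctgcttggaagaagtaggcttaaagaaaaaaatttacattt
CG18549: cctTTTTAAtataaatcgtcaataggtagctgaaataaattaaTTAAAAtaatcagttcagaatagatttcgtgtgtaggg
Tcs5: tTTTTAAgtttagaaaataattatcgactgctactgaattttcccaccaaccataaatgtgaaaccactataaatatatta

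The pooled signal of the strong peaks ran from 500.7 to 2158 with a median of 624.5, and that of the other 3824 IDR peaks had a median of 162.1. The strong peaks held 19.1% of the summed signal of the IDR set. Only 26 of them reached 1000, and 98 lay under 600. There was no gap in signal at the minimum: the last members were the intergenic peak nearest to *zfh2* (502.6), the *Dh31-R* promoter (501.5) and the *Brf* promoter (500.7), and IDR peaks just under it included an intergenic site nearest to CG13321 (498.6) and the *TRAM* promoter (497.9). All strong peaks had the same deposited -log10 q value of 3.54, which 1486 of the other IDR peaks also had, so the q value did not rank them. The region widths went from 114 bp at *alphaCOP* to 742 bp at a noncoding gene near CG4004, with a median of 255 bp. Only 14.0% of the strong regions were exactly 450 bp wide, against 96.7% of the other IDR regions. Arm 2L held 52 strong peaks, 2R 46, 3L 47, 3R 55, X 35 and chromosome 4 held 1. Their share of an arm's IDR peaks was 5.04% on X and between 5.26% and 6.96% on the arms of chromosomes 2 and 3, with overlapping Wilson intervals. Depth is unknown, since the lists give no read counts.

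**Figure D1:**
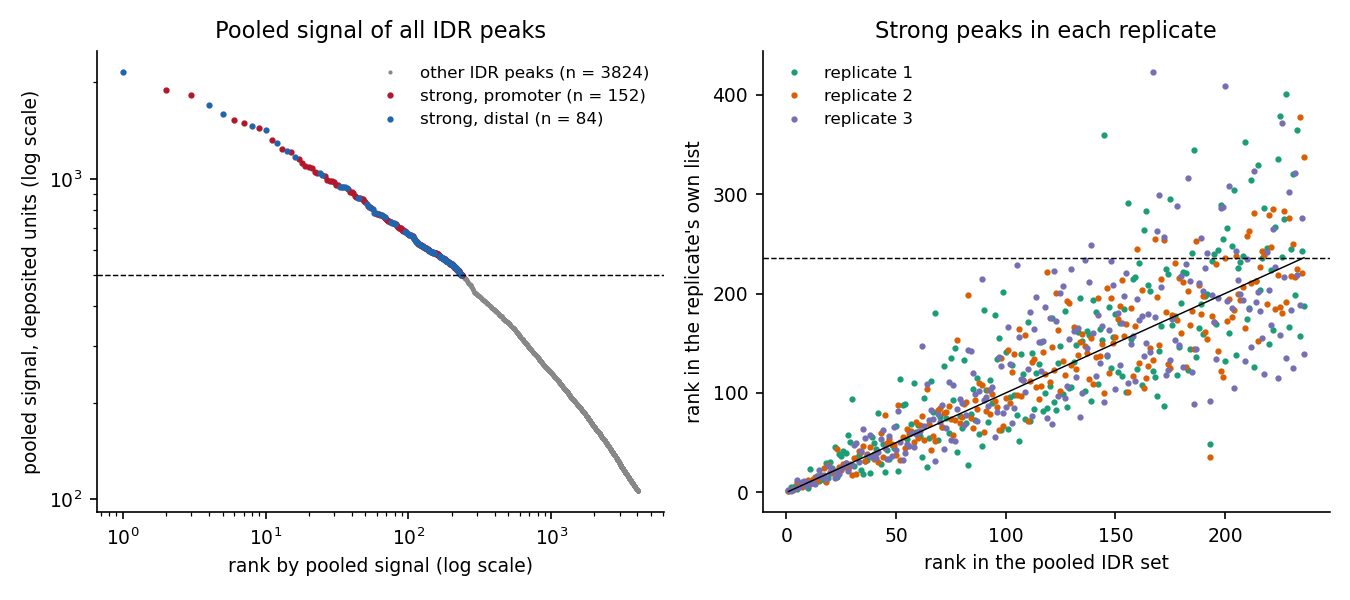
Left, pooled signal (the authors' units, log scale) of every IDR peak against its rank (log scale); colours mark strong promoter peaks (152), strong distal peaks (84) and the other 3824, and the dashed line is the minimum of 500. Right, rank of each strong peak in the list of each replicate against its pooled rank; the solid line is equal rank, the dashed line is rank 236, and the highest rank number reached is 423.

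Every strong peak was also among the high regions of each replicate. The pooled signal is made from the same replicates, so these ranks describe the members and are no test of them. All 236 strong peaks overlapped one of the 4060 highest regions of every replicate by at least 1 bp, as did 66.4% of all IDR peaks. They ranked no lower than 401, 377 and 423 in replicates 1, 2 and 3, whose lists hold 30000 regions each. Among the 236 highest regions of a replicate were 206, 218 and 215 of them, and 180 (76.3%) were there in all 3 replicates. A further 43 were there in 2 replicates and 13 in 1. The peaks with the lowest best rank were those at *Dh31-R* (ranks 243, 221 and 276 in replicates 1, 2 and 3), *Trp1* (364, 225 and 219) and the intergenic peak nearest to CG3149 (275, 283 and 217). The lowest rank in any replicate was that of an intronic peak of *Ada2b*, a subunit of a histone acetyltransferase complex, at 122, 133 and 423.

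To compare heights between replicates, each signal was divided by the median over all IDR peaks in that replicate. The strong peaks had median ratios of 3.35, 3.73 and 3.71 in replicates 1, 2 and 3, and the lowest ratio was 2.12. The CG11050 intron (FBgn0031836, 2L 6612478 to 6612908) had signals of 816, 907 and 434 in replicates 1, 2 and 3, or 11.6, 12.4 and 12.3 times the median. The *Ugalt* promoter (FBgn0024994, X 2703685 to 2704098; a UDP-galactose transporter) had 581, 882 and 443, or 8.23, 12.1 and 12.6 times the median. For the median strong peak, the highest of the 3 ratios was 1.28 times the lowest, and 194 of the 236 stayed under 1.5 times. The widest spread, 2.07 times, was at an intergenic peak at -556 bp from *sp3*, with ratios of 2.86, 4.85 and 5.93. *PNPase*, a polynucleotide phosphorylase, also stood lower in replicate 1, with ratios of 3.52, 6.83 and 6.41.

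Most strong summits lay at promoters, meaning within 500 bp of the TSS of a protein-coding gene. These were 152 of 236, or 64.4% (95% Wilson interval 58.1 to 70.2), against 1888 of the other 3824, or 49.4% (47.8 to 51). Introns held 57 (24.2% against 35.3%) and intergenic sequence 21 (8.90% against 12%). The rest were 4 in noncoding genes, 1 in a 5' UTR of *baz* and 1 in a coding exon of *otp*, and there was none in a 3' UTR. A count of 0 among 236 has a Wilson upper bound of 1.60%, above the 0.785% of the other peaks, so a lower share was not detectable. Each replicate was then ranked by its own signal. The 236 highest regions were at promoters in 61.9%, 64.4% and 63.6% of cases in replicates 1, 2 and 3, and the regions ranked 237 to 4060 in 55.3%, 44.6% and 45.5%. The difference was positive in all 3 replicates and averaged 14.8 ± 7.23 percentage points (SD, n = 3; exact two-sided sign-flip permutation p = 0.25, the smallest that 3 replicates allow). Replicate 1 had the smallest difference, 6.53 points, through a higher share in its lower regions. These replicate lists overlap in sites, so their spread covers libraries and not sites. A strong peak was overlapped by 207, 219 and 216 of the 236 highest regions in replicates 1, 2 and 3. The differences therefore describe largely the same sites and are no separate test.

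The promoter share showed no step at the minimum of 500. It was 66.0% for ranks 1 to 50, 64.0% for ranks 51 to 100 and again for 101 to 236, and 62.9% for ranks 237 to 500. It then went down to 54.2% for ranks 501 to 1000 and 42.6% for ranks 3001 to 4060.

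**Figure D2:**
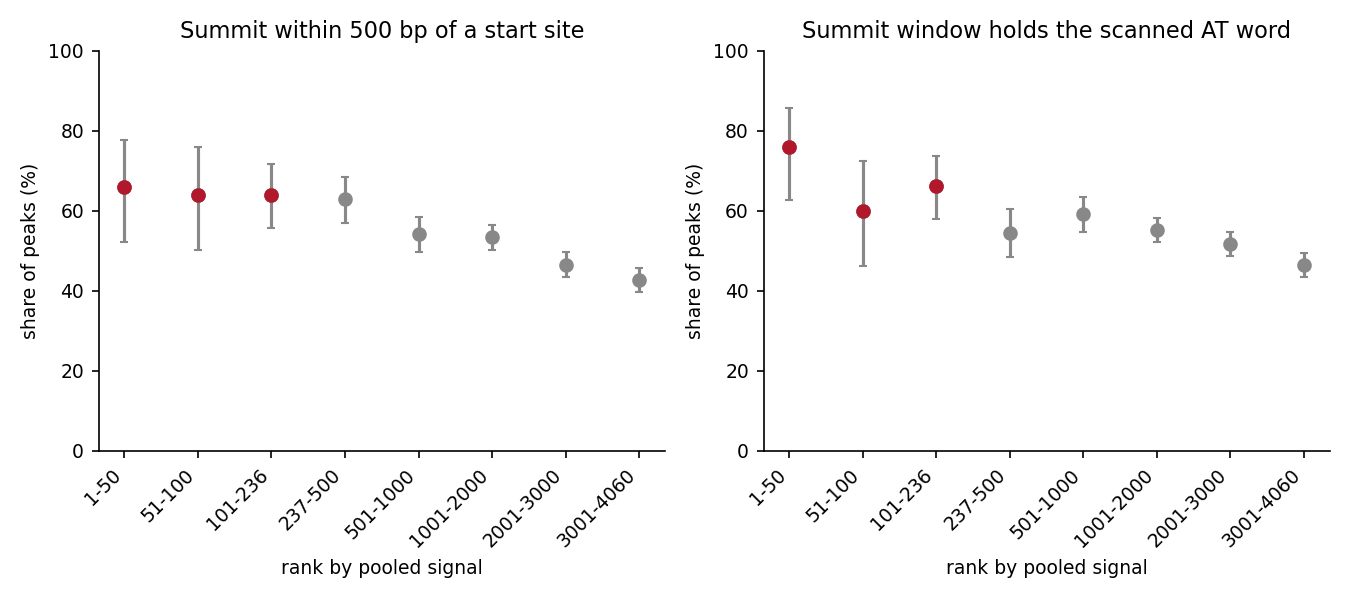
Share of IDR peaks (%) by rank of pooled signal, with 95% Wilson intervals; red points are the strong peaks. Left, summits within 500 bp of a protein-coding TSS, from 66.0% in the first bin to 42.6% in the last. Right, summit windows of 201 bp that hold the AT-rich word of the word scan, from 76.0% to 46.4%, without a steady fall between.

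At promoters, strong summits sat upstream of the start site. The median position was -141 bp (quartiles -220 and -98.0), and 138 of 152 (90.8%, Wilson interval 85.1 to 94.4) were upstream, against a median of -121 bp and 84.7% (83.0 to 86.2) for the other promoter peaks. Fewer strong summits were close to the TSS: 35 of 152 (23%, 17.0 to 30.3) lay within 100 bp of it, against 35.1% (32.9 to 37.2) of the other promoter peaks. In the replicates' own lists the medians were -130, -142 and -142 bp for the 236 highest regions and -106, -128 and -120 bp for the rest. The highest peaks were mostly upstream too, but their upstream share was not above that of the other promoter peaks. By pooled rank, 81.8% of promoter summits were upstream for ranks 1 to 50 (median -128 bp). The share was 84.4% for ranks 51 to 100 (-120 bp) and 96.6% for ranks 101 to 236 (-166 bp). Just below the minimum, ranks 237 to 500 had 89.8% (-148 bp). The higher upstream share of the strong set therefore came from ranks 101 to 236. The strong peak farthest downstream within the promoter window was at CG31612, 464 bp into the gene. Strong summits served more than 1 gene in 62 of 152 cases (40.8%, 33.3 to 48.7), close to the 43.5% of the other promoter peaks. In 58 of these cases the genes lay on opposite strands, and in 51 the summit was upstream of every gene in reach. An example is the *Lon* and *PIG-F* pair (a mitochondrial protease and an enzyme of glycolipid anchor synthesis), whose start sites were both 128 bp from the summit.

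**Figure D3:**
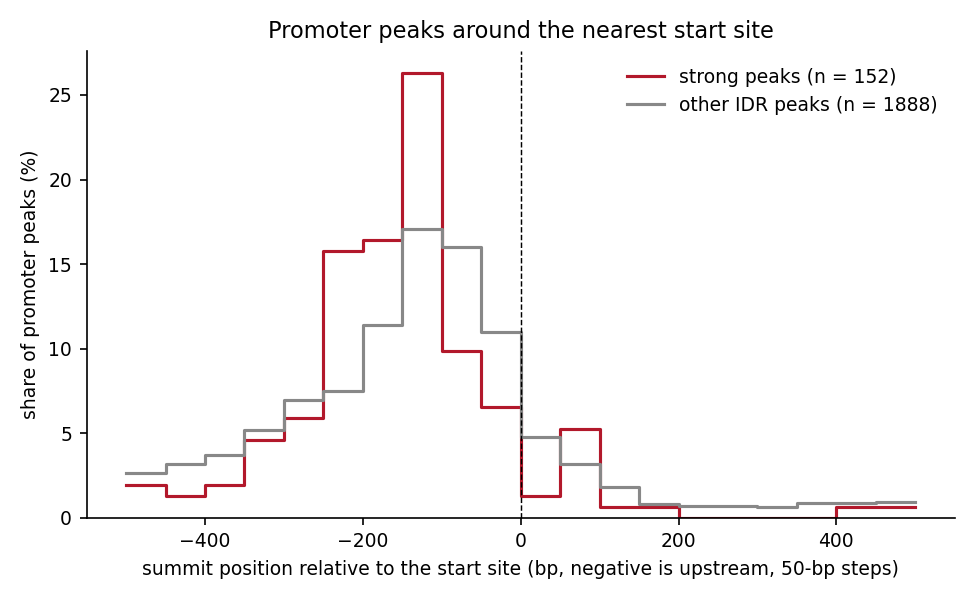
Share of promoter peaks (%) in 50-bp steps of summit position relative to the nearest start site (bp, negative is upstream) for 152 strong and 1888 other IDR peaks. Strong peaks have 26.3% of summits between -150 and -100 bp and only 6.58% in the last 50 bp before the start site, where the other peaks have 11%.

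Strong promoter peaks below the highest ones are described next. *Tina-1* (2R 24942393 to 24942749) had a signal of 1017 and ranks of 42, 29 and 26 in replicates 1, 2 and 3. CG1888 followed at 991.3 (ranks 40, 30 and 30), and the CG13390 and CG17294 pair at 985.8. The genes below are grouped by known role for reading, after their values were seen, and the grouping was not tested. *PNPase* had 978.0, *RluA-1*, of a pseudouridine synthase family, 911.7, *larp*, an RNA-binding protein, 863.7, and the shared promoter of CG18428 and *eIF4EHP*, a cap-binding translational repressor, 852.3. *Elp6*, a subunit of the Elongator complex that modifies tRNA, shares its promoter with the mitochondrial carrier gene *Dic1* and had 879.0. Genes for mitochondrial proteins included *Lon* (954.5), *mRpL23* (906.8) and *PTPMT1*, a mitochondrial phosphatase whose start site lay beside that of the protein quality control gene *Hrd3* (928.0). Others were *gish* (903.7), of the casein kinase I family, *Mkk4* (825.4), a kinase upstream of JNK, and *E23* (867.5), an ecdysone-induced transporter. The ranks in replicates 1, 2 and 3 were 94, 18 and 28 for *PNPase* and 56, 37 and 36 for *RluA-1*. They were 44, 40 and 35 for *gish*, 34, 54 and 57 for *E23*, and 48, 49 and 37 for *larp*. Of these, *PNPase* varied most between replicates.

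Protein-coding genes with a strong summit within 500 bp of a TSS numbered 213 of 13945, or 1.53%. Among 86 cytoplasmic ribosomal protein genes there were 9 (10.5%, Wilson interval 5.60 to 18.7), and 64 of the 86 (74.4%) had an IDR peak of any height, against 18.7% of all genes. The any-height share on the other lists was lowest for Hox genes (1 of 8) and highest for insulator and architectural genes (7 of 14). The 9 cytoplasmic ribosomal protein genes with a strong summit included *RpS27* (847.1), *RpL7* (749.0), *RpL13A* (585.3), *RpLP0* (583.7), *RpL28* (577.8), *RpL23A* (537.1), *RpS16* (537.0) and *RpL19* (506.7). At 8 of the 9 the summit lay within 100 bp of the ribosomal protein TSS, nearer than at most strong promoter peaks. The weaker peaks of these genes were placed alike, within 100 bp at 47 of 57 genes. Among 73 mitochondrial ribosomal protein genes 4 (5.48%, Wilson interval 2.15 to 13.3) had a strong summit: *mRpL41* (1490), *mRpS10* (1437), *mRpS23* (984.0) and *mRpL23* (906.8). The first 3 of these summits lay 125 to 370 bp upstream of the start site, and the *mRpL23* summit 73 bp downstream. The summit 370 bp from *mRpS23* was nearer to *CenG1A*, at 122 bp. Among 13 glycolytic genes there were 3: *Gapdh2* (1044), *Hex-A* (587.4) and *Eno* (552.4). Among 53 translation factors there were 4: *eIF4EHP* (852.3), *eIF6* (673.7), *eEF1gamma* (661.1) and *eIF1*, whose TSS lay 320 bp from the *RpL28* summit (577.8). Of 70 genes of the general transcription machinery 1 (1.43%), *Ssl1*, a subunit of TFIIH, had a strong summit, near the share of all genes. It shares a promoter with *Chro*, a chromatin architecture gene (1320). None of the 8 Hox genes had one, a count whose interval reaches 32.4%. Cell cycle, Notch, ecdysone, stress factor and growth signalling lists had 1 gene each, namely *CycE* (503.9), *E(spl)m3-HLH* (618.9), *E23* (867.5), *Atf3* (767.4) and *REPTOR* (532.7), out of 29, 22, 17, 13 and 17 genes. Pooled signal decided which peaks count here, so the shares are a description.

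Lists of Polycomb group, trithorax group and insulator genes were counted next. The 2 polyhomeotic genes, which encode subunits of Polycomb repressive complex 1, lie in tandem on X and had 3 strong peaks. At *ph-p* the summits lay 676 bp apart, each beside a different start site of the gene. One was 439 bp upstream of its nearest start site (X 2137181 to 2137537; 1120) and the other 401 bp downstream of its own (X 2137700 to 2138085; 954.0). The first had signals of 350, 592 and 282 and the second 342, 494 and 183 in replicates 1, 2 and 3, so the first was higher in each. The *ph-d* peak, at -797 bp from the gene's start site, had 622.9. *Psc*, another subunit of that complex, had a peak at -4215 bp (936.2), with ranks of 33, 39 and 38 in the replicates. Of 19 Polycomb group genes 1, *ph-p*, had a strong summit within 500 bp (5.26%, Wilson interval 0.935 to 24.6, which holds the 1.53% of all genes). By nearest TSS within 5 kb the count was 3, with *Psc* and *ph-d*, against 208 of all 13945 genes. Of 18 trithorax group genes 1 had a strong summit within 500 bp (5.56%, 0.988 to 25.8, which also holds 1.53%). It was *brm*, the ATPase of the Brahma remodelling complex, at -118 bp (678.0). *trx*, a histone methyltransferase, had an intronic peak (681.0), and so did *osa*, a Brahma complex subunit, 13933 bp into the gene (728.7). Among 14 insulator and architectural genes 2 had a strong summit within 500 bp, *Chro* (1320) and *Cp190* (703.1). This was 14.3% (Wilson interval 4.01 to 39.9), against 1.53% of all genes, and is a description only. *Trl*, the GAGA factor, was not among the 2 and was reached through its intron (1457), by nearest TSS within 5 kb. Other intronic peaks, named after their values were seen, were in *wde* (804.8), *Kdm2* (770.0), *Gug* (726.6), *simj* (675.3, the one nearest to its own start site of 3 in the gene, with 836.6 and 569.5), *Smr* (661.4) and *JIL-1* (561.3), all genes of chromatin modifiers or corepressors.

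Of 21 HMG-box and Sox genes, 1 had a strong promoter summit (4.76%, Wilson interval 0.846 to 22.7, which holds the 1.53% of all genes). It was *Sox14* (701.8; ranks 115, 84 and 72 in replicates 1, 2 and 3). *HmgZ*, a small HMG protein of chromatin, had a summit 563 bp upstream of its nearest start site (1173; ranks 18, 17 and 16). *bbx*, an HMG-box gene outside that list and its count, named after its value was seen, had a promoter peak of 809.3 (ranks 54, 64 and 49). The 7 genes of the list with an IDR peak of any height at a promoter were 33.3% of it, against 18.7% of all genes. On the other lists this share ran from 12.5% (Hox genes) to 74.4% (cytoplasmic ribosomal proteins), and was also 33.3% for the trithorax group.

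For the 84 strong peaks outside promoters, the median distance to a protein-coding TSS was 1898 bp, against 2826 bp for the other 1936 distal IDR peaks. Of the 84, 22 were within 1000 bp, 21 between 1000 and 2000 bp, 18 between 2000 and 5000 bp and 23 farther, up to 31953 bp. Protein-coding genes held 59 of them. The highest after the first few included a site at -5721 bp from *eEF1gamma* (944.8; ranks 38, 42 and 31) and a site at -12473 bp from *chinmo*, a zinc finger gene of neuronal timing (941.6; ranks 23, 41 and 42). *chinmo* had a second at -7834 bp (723.3; ranks 65, 76 and 90). Intronic sites were in *Lrch* (941.5), in *chif*, an activator of a replication kinase (940.8), and in *sbb*, a transcriptional corepressor (872.7). An intergenic site 3309 bp downstream of the nearest *CycB* start site had 769.5. The insulin receptor gene *InR* held 1 at 614.1. Annotated noncoding RNA genes started within 500 bp of 9 of the 84 (10.7%, Wilson interval 5.74 to 19.1), against 4.65% (3.8 to 5.68) of the other distal peaks. The *eEF1gamma* site was 111 bp upstream of lncRNA:CR31044, the *Psc* site 158 bp upstream of lncRNA:CR44339 and the site nearest to *hll* (1419) 10 bp into lncRNA:CR31840.

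Strong peaks were often near other peaks. Another IDR summit lay within 5000 bp of 157 (66.5%, Wilson interval 60.3 to 72.2), against 54.3% (52.7 to 55.8) of the other IDR peaks. Within 1000 bp the shares were 29.2% (23.8 to 35.3) and 23.2% (21.9 to 24.6). In 10 clusters, 21 strong peaks lay within 5000 bp of one another. The only cluster of 3 was at *jp* and *brwl* (2L 9567366 to 9570098), with signals of 731.7, 778.9 and 633.8. The CG9663 intron held 2 overlapping regions with summits 202 bp apart (872.9 and 546.7). Both were matched to the same region in replicates 1 and 2, so the ranks of 49 and 36 printed for the weaker one there are those of its neighbour.

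Base composition around the summit was not used in the selection. In the central 51 bp the strong peaks had a mean GC content of 29.5% (SD 9.42 over 236 peaks, lowest 5.88%, highest 66.7%), the same at promoters and elsewhere, and the other IDR peaks had 32.7% (SD 11.1). The 6 chromosomes have 42.2%, and all 19253 distinct protein-coding start sites had a mean of 37.5% in a window of the same length centred 125 bp upstream. At 200 bp to either side of the summit the strong peaks had 44.4% and the others 41.9%. GC content therefore dropped by 14.9 points into the centre of strong peaks and by 9.16 points in the others. The centre was lower than the flanks in 205 of 236 strong peaks (86.9%) and in 73.1% of the others. The lowest centre, 5.88%, belonged to the *Psc* upstream site, and exceptions with a centre above the flanks included *RpS27* (49.0% against 39.2%) and *Hsp83* (45.1% against 23.5%).

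**Figure D4:**
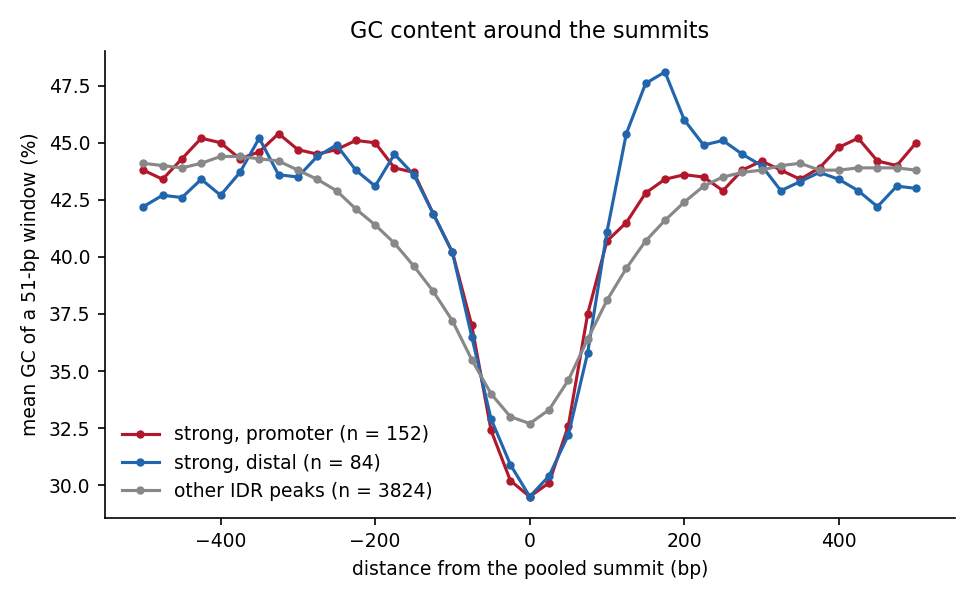
Mean GC content (%) of 51-bp windows by distance from the pooled summit (bp) for 152 strong promoter, 84 strong distal and 3824 other IDR peaks, on the plus strand. Both strong sets reach 29.5% at the summit and pass 40% by 100 bp to either side, while the other peaks have 32.7% at the summit and 37.2% and 38.1% at 100 bp.

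The same contrast was seen in each replicate's own ranking. Of the 236 highest regions, 207, 219 and 216 in replicates 1, 2 and 3 overlapped a strong peak. The sites are therefore largely the same, so these values describe them and are no separate test. The mean central GC content was 30.2%, 29.1% and 29.5% for the 236 highest regions of replicates 1, 2 and 3, and 34.4%, 32.5% and 33.7% for ranks 237 to 4060. The difference averaged -3.89 ± 0.496 points (SD, n = 3; lower in 3 of 3 replicates, exact two-sided sign-flip permutation p = 0.25). In the pooled set the difference between strong and other IDR peaks depended on the window. It was -3.23 points over 51 bp, -0.928 points over 201 bp and 1.26 points, in the opposite direction, over 401 bp. Peaks just below the minimum (ranks 237 to 472) had 30.3% at the centre, near the strong peaks. Replicate summits lay closer to the pooled summit at strong peaks, a median of 10.5, 11 and 15 bp away in replicates 1, 2 and 3 against 17, 24 and 35 bp at the others, and the part of this scatter in the shape of the trough was not tested. Nor was the part of base composition in the recovery of fragments, since control alignments were not analysed here.

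**Figure D5:**
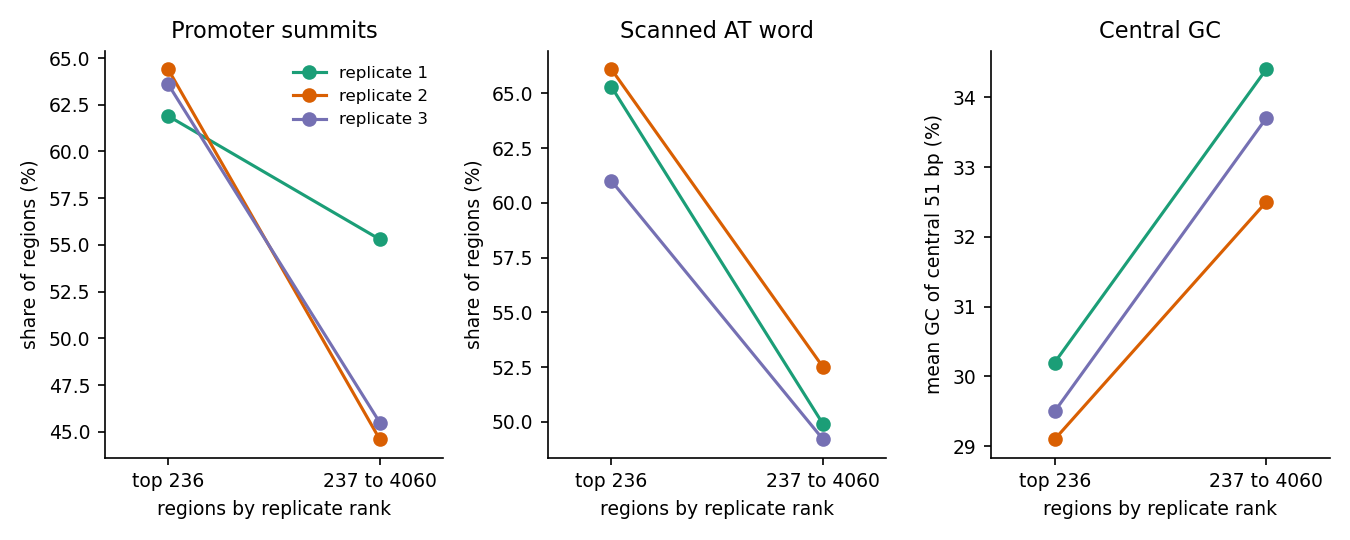
The 236 highest regions of each replicate against its regions ranked 237 to 4060, 1 line per replicate (vertical axes do not start at 0). Left, share at promoters (%); middle, share with the AT-rich word (%); right, mean GC content of the central 51 bp (%). All 3 lines slope the same way in each panel.

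Single words set strong peaks apart less clearly. In windows of 201 bp, 1 of 30 consensus motifs (3.33%) had Wilson intervals that did not overlap between strong and other IDR peaks. It was GGGCGG, the core bound by factors of the SP and KLF families, in 15 of 236 strong windows (6.36%, 3.89 to 10.2) and 3.06% (2.56 to 3.65) of the others, with 4.77% of windows of this length at all start sites. The intervals overlapped for every motif, GGGCGG included, when the window had 50 or 200 bp to each side. GGGCGG was also not among the motifs with separate intervals at a signal minimum of 400 or 1000 or among distal peaks, where others were. Among promoter peaks GGGCGG had separate intervals, in 11 of 152 strong windows (7.24%) against 2.70% of the others. In the replicates it was in 4.66%, 6.78% and 5.08% of the 236 highest regions and in 3.56%, 3.22% and 3.58% of the rest. The Sox word ACAAT was in 47.9% of strong windows and 51.8% of the others, and in 46.2% at all start sites. The longer Sox word ACAATG went the other way, with 12.7% and 10.6%, and 10.3% at all start sites. For both Sox words the intervals overlapped. GAGAG, bound by GAGA factor, was in 22.9% and 20.8%, and in 25.3% at all start sites. TATAAA was in 43.2% and 39.2%, and in 32.5% at all start sites. All words were searched on both strands.

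A scan of all 2080 distinct 6-base words, with a word and its reverse complement counted as the same, was then made. For 61 words (2.93%) the intervals did not overlap. These words were chosen after their values were seen and are described without a test. TTAAAA was in 158 of 236 strong windows (66.9%, 60.7 to 72.6) and 52.3% (50.7 to 53.9) of the others. Windows of the same length centred 1000 bp away held it in 26.9% and 28.1%, and windows at all start sites in 41.5%. It was in 69.1% of strong promoter and 63.1% of strong distal windows, against 56.7% and 48.0% of the other peaks of these classes. It was present more than once in 79 strong windows, with up to 7 copies. By pooled rank its share did not fall steadily. It was 76.0% for ranks 1 to 50, 60.0% for ranks 51 to 100 and 66.2% for ranks 101 to 236. Below the minimum it was 54.5% for ranks 237 to 500 and 59.2% for ranks 501 to 1000, near that of ranks 51 to 100. On chromosome 2 the shares of strong and other windows with the word were 62.2% and 51.3%, and on the other chromosomes 70.3% and 52.9%. In the replicates' own rankings TTAAAA was in 65.3%, 66.1% and 61.0% of the 236 highest regions and in 49.9%, 52.5% and 49.2% of the rest, a mean difference of 13.6 ± 1.73 points (SD, n = 3). The word was picked on largely the same sites, so these shares only describe it. Among peaks with a central GC content of 30% or less, 73.5% of 147 strong and 66.6% of 1738 other peaks held the word, a difference of 6.90 points (interval -1.07 to 13.8). Among peaks above 30% it was in 56.2% of 89 strong and 40.5% of 2086 other peaks, a difference of 15.7 points (5.15 to 25.8).

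Other words of the scan were rarer. CTTACA was in 17.8% of strong and 10% of other windows, and the excess lay at promoters (23.7% against 10.1%) and not elsewhere (7.14% against 10%); it was in 8.32% of windows at all start sites. ACCCCC was in 10.6% and 3.71%, against 4.27% at all start sites. Lower in strong peaks were AAACAG (10.2% against 18.8%, and 16.4% at all start sites), ACAACA (10.6% against 18.4%, and 15.8%) and CACACA (8.47% against 15.9%, and 14.7%). The differences for these 5 words had the same sign in all 3 replicates. The words were picked on largely the same sites, so this only describes them. Most of the summit window was marked as repeat sequence in the reference for 9 strong peaks (3.81%) and for 5.54% of the others.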

How the data were processed

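The authors deposited region lists for whole embryos of the tagged line (1 group, 3 biological replicates). Per the deposited text lists, each replicate's regions were derived from its own alignment and 1 further file of unnamed kind, the pooled list from all replicates, and the IDR set from these lists. No source used here names the aligner or peak caller. The signal of a region and the -log10 q value are the authors' and the summit position is a deposited column (other). Signal is on the scale of its own list. Lists in dm3 were not used beyond a count. Depth is unknown.

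All region ends lay within the chromosomes of the Release 6 assembly, from which sequence was read. Genes came from Ensembl BDGP6. Summits up to 500 bp from a protein-coding TSS counted as promoter; the rest went to UTRs, coding exons, introns, other genes or intergenic sequence. Each IDR peak took the highest overlapping region of each replicate. Coordinates are 1-based. Wilson intervals (95%) cover counting error only, over sites that are not independent. The exact sign-flip test over 3 replicates cannot go below p = 0.25. The members, gene lists and motifs were chosen with earlier results of these data known. Named sites were the highest 35 promoter and 30 other strong peaks, genes with several strong peaks, up to 4 per gene list (9 for ribosomal proteins), those next to the minimum and the extremes of rank and width, of which a part is printed and some are not reported here; others are said to be chosen after their values were seen. The word scan was checked on shuffled sequence with a planted word. Python 3.11.15, numpy 2.4.6, pandas 2.3.3, scipy 1.17.1, statsmodels and matplotlib 3.10.9 were used.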

Additional observations from a re-analysis of the deposited data

How the results depend on the processing

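No paired analysis of groups was possible because there was 1 group. The sign-flip test used the difference between high and lower regions within each replicate, not between groups. The minimum of 500 set the number of strong peaks: 375 at a minimum of 400 and 26 at 1000. The GC difference over 201 bp (-0.928 points) was -2.83 with 50 bp to each side, -3.23 with 25 bp, an alternative added after seeing the data, and reversed to 1.26 with 200 bp. The excess of TTAAAA (14.6 points) was 6.38 with 200 bp to each side, 23.9 at a minimum of 1000 and 6.90 among peaks of low central GC content, all added after seeing the data. Consensus motifs with separate intervals numbered 0 with 50 bp and again 0 with 200 bp to each side, and 2 at a minimum of 1000. Upstream summits were 96.1% where no other gene started within 1 kb. The cause of these moves was not tested. Leaving out each replicate gave promoter differences of 12.3 to 19.0 points, word differences of 12.7 to 14.5, central GC differences of -4.18 to -3.74 and 20 to 22 motifs of 1 sign (17 with all). The promoter difference of 15.0 points ranged from 10.6 to 16.7 over the other minimums, windows and start sites, with an interval of -7.70 to 27.5 for the 26 peaks of 1000 or more. Of 32 gene list counts under other distances, 21 stayed within 1.5 times. With a window of 1000 bp, Polycomb group and HMG-box genes each went from 1 to 2 and growth signalling from 1 to 3, while all genes went from 213 to 250. By nearest TSS within 5 kb, Polycomb and trithorax group genes each became 3, growth signalling 4, HMG-box, stress factor and cell cycle genes 2 each, translation factors fell to 2 from 4 and general transcription to 0, with 208 of all genes. Depth, which is unknown, limits all heights.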

Other observations

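Iron storage is represented among the strong promoter peaks: the divergent ferritin genes *Fer2LCH* and *Fer1HCH* shared a peak with a signal of 733.8 and ranks of 60, 87 and 111 in replicates 1, 2 and 3. The neuronal RNA-binding gene *elav* had one 293 bp upstream (622.5; ranks 175, 146 and 69), at the same distance from the noncoding gene lncRNA:enrr. The chaperone gene *Hsp83* had one at -115 bp (552.4; ranks 344, 144 and 89), lower in replicate 1 than in the other replicates. Genes of growth and immune signalling with strong promoter peaks included *Toll-7* (619.5), *Btk* (738.4), *Shc* (755.3) and *Src64B* (515.3). These genes were named after their values were seen.

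In the dm3 build the IDR set held 3000 peaks, of which 237 had a signal of 500 or more.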
